A study of Mus musculus with 15 samples.

Results

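The mouse genes described here over 15 liver libraries are 10 that surround 3 introduced sequences. Ctnnb1, Nfe2l2 and Met are the mouse counterparts of the introduced β-catenin, NRF2 and MET. The other 7 are their regulators: Hgf and Hgfac (the ligand of MET and the protease that activates it), Keap1 and Cul3 (NRF2 degradation), and Apc, Axin1 and Gsk3b (β-catenin degradation). They were taken by symbol from the 24411 genes of the count files, and all 10 were among the 14098 genes that passed the low-count filter.

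RNA was sequenced from frozen livers of male mice of the FVB/NJ strain, in 5 groups of 3 libraries. CTNNB1_NFE2L2_MET carried CTNNB1 with the S45Y change, NFE2L2 with the G31A change and human MET. CTNNB1_MET carried S45Y CTNNB1 and human MET, CTNNB1_NFE2L2 carried S45Y CTNNB1 and G31A NFE2L2, NFE2L2_MET carried G31A NFE2L2 and human MET, and WT was wild-type FVB liver with none of them. The labels give no age, promoter, vector, delivery route, time or pairing, and nothing on whether a sample is tumor or surrounding liver. They do not say that the 3 samples of a group came from separate mice, so p-values measure only the spread between these samples. They name the introduced MET as human but give no species for the other introduced sequences. Counts per mouse gene do not separate introduced from native transcripts.

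β-catenin joins cadherins at cell contacts and also acts with TCF and LEF proteins as a transcriptional activator of Wnt target genes. In the absence of a Wnt signal, a destruction complex built on APC and AXIN1 brings β-catenin to the kinase GSK3B, whose phosphorylation marks it for degradation. NRF2 switches on antioxidant and detoxification genes and is kept low by KEAP1, an adaptor that hands it to the CUL3 ubiquitin ligase. MET is the receptor tyrosine kinase of hepatocyte growth factor, which in liver is made mainly by stellate cells as an inactive precursor and cleaved by proteases such as HGFAC, a product of hepatocytes.

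The stretches that carry the 2 labelled changes are shown as they stand in the mouse reference (GRCm38), since the deposited counts hold no sequence. In the Ctnnb1 stretch (chr9:120950590-120950658, plus strand, exon 3, codons 28 to 50), capitals mark codons 33, 37, 41 and 45, the phosphorylated serines and threonine. Codon 45 is the one named in S45Y. In the 2 Nfe2l2 stretches, capitals mark codon 31 in the low-affinity KEAP1-binding site (chr2:75679355-75679411, minus strand, exon 2, codons 22 to 40), the one named in G31A, and codons 79 to 82 in the high-affinity site (chr2:75679211-75679258, minus strand, exon 2, codons 73 to 88).
Ctnnb1 phosphorylation sites: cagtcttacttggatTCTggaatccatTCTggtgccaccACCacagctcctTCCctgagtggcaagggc
Nfe2l2 low-affinity KEAP1 site: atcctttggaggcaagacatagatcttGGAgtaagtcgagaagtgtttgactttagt
Nfe2l2 high-affinity KEAP1 site: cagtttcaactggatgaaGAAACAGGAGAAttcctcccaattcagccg

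Gene counts summed to between 14084343 and 20702618 per library, and levels are given as CPM, counts scaled to library size with TMM factors. Group means of unmapped reads were 10.3 to 17.2% in the 4 groups with introduced genes and 22.9% in WT. Target lists chosen to check the labels moved with them. The lists were picked when earlier results of the data were known, so this is not an independent check. Among all tested genes, 17.2 to 49.9% passed against WT, depending on the group. All 6 β-catenin targets (Axin2, Nkd1, Sp5, Lgr5, Notum, Glul) were higher than in WT in each of the 3 groups with CTNNB1, while in NFE2L2_MET 0 were higher and 5 were lower. All 6 NRF2 targets (Nqo1, Gclc, Gclm, Srxn1, Gsr, Txnrd1) were higher than in WT in each of the 3 groups with NFE2L2, while in CTNNB1_MET 2 were higher and 1 was lower. All 7 hepatocyte markers were detected in every library.

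Per kilobase of exon, the mean of the 5 group levels was highest for Ctnnb1 (67.1 CPM per kb) and Hgfac (42.0 CPM per kb), and lowest for Apc (2.07 CPM per kb) and Hgf (0.423 CPM per kb). Keap1 stood at 19.1, Nfe2l2 at 14.8, Cul3 at 11.1, Met at 10.3, Axin1 at 7.06 and Gsk3b at 3.81 CPM per kb. A test of any difference between the 5 groups (edgeR quasi-likelihood F test, adjusted p under 0.05) passed for 5 of the 10 genes, Ctnnb1, Hgf, Hgfac, Keap1 and Apc, against 65.5% of all tested genes. The largest movements over the groups were those of the ligand and its activator: group means spanned 5.57-fold for Hgfac and 3.45-fold for Hgf. For the other 8 genes the span was 1.19-fold (Axin1) to 1.65-fold (Ctnnb1).

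**Figure D1:**
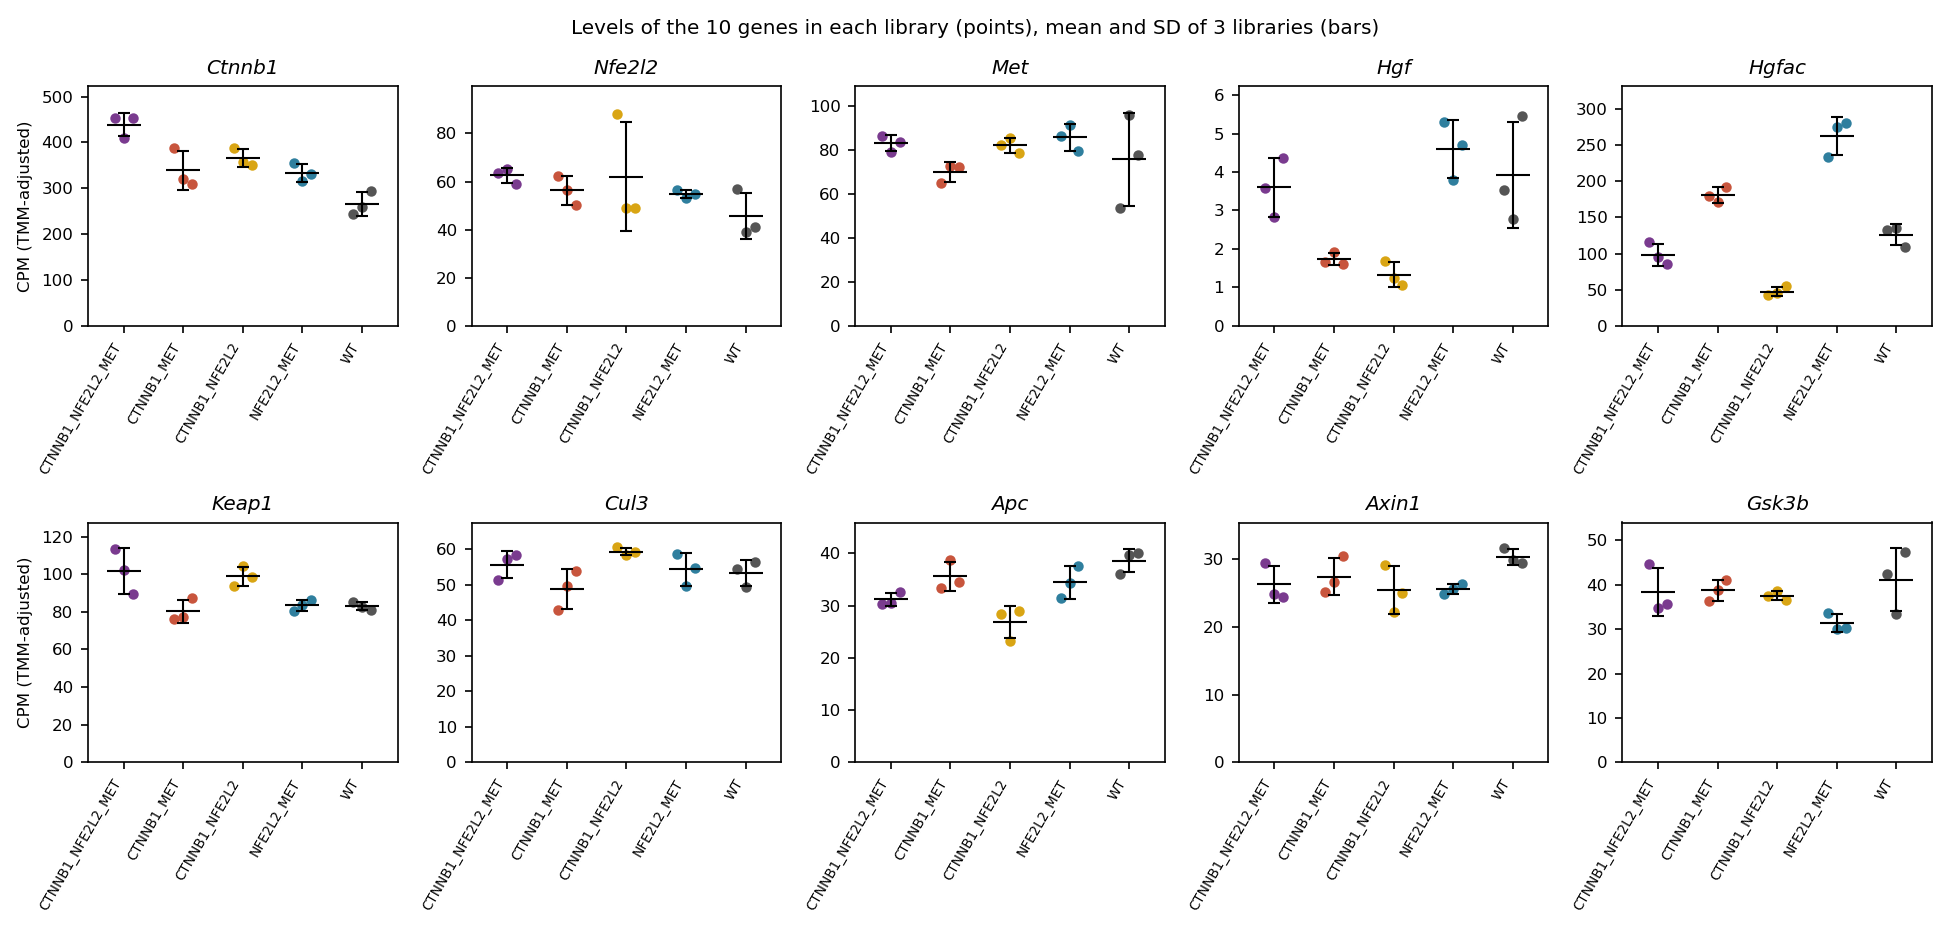
Level of each of the 10 genes (y axis, TMM-adjusted CPM from 0) in the 5 groups (x axis); points are libraries, bars are the mean and SD of 3. Hgfac spreads most, with NFE2L2_MET at 233 to 281 CPM and CTNNB1_NFE2L2 at 42.5 to 54.7 CPM.

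Each group was compared with WT and with the others, 10 contrasts in all, which share libraries and so are not independent. Against WT, 4 of the 10 genes passed in CTNNB1_NFE2L2_MET (49.9% of all tested genes passed), 3 in CTNNB1_MET (17.2%), 5 in CTNNB1_NFE2L2 (48.7%) and 3 in NFE2L2_MET (23.4%). For CTNNB1_NFE2L2_MET against a group with a pair of the introduced genes, 3 passed against NFE2L2_MET (30.7%), 4 against CTNNB1_MET (33.8%) and 2 against CTNNB1_NFE2L2 (25.0%). Between groups with pairs, 2 passed for CTNNB1_MET against NFE2L2_MET (14.3%), 3 for CTNNB1_NFE2L2 against NFE2L2_MET (37.2%) and 4 for CTNNB1_MET against CTNNB1_NFE2L2 (35.1%). With 10 genes a share moves in steps of 10%, and most of these shares were near those of all genes. In the order of group means, each neighbouring pair passed for Hgfac, 1 pair for Ctnnb1 (NFE2L2_MET and WT) and 1 for Hgf (CTNNB1_NFE2L2_MET and CTNNB1_MET), and none for the other 7 genes. The median log2 fold change of the 10 genes lay between -0.10 and 0.17 in the 10 contrasts, beside -0.02 to 0.03 for all tested genes.

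**Figure D2:**
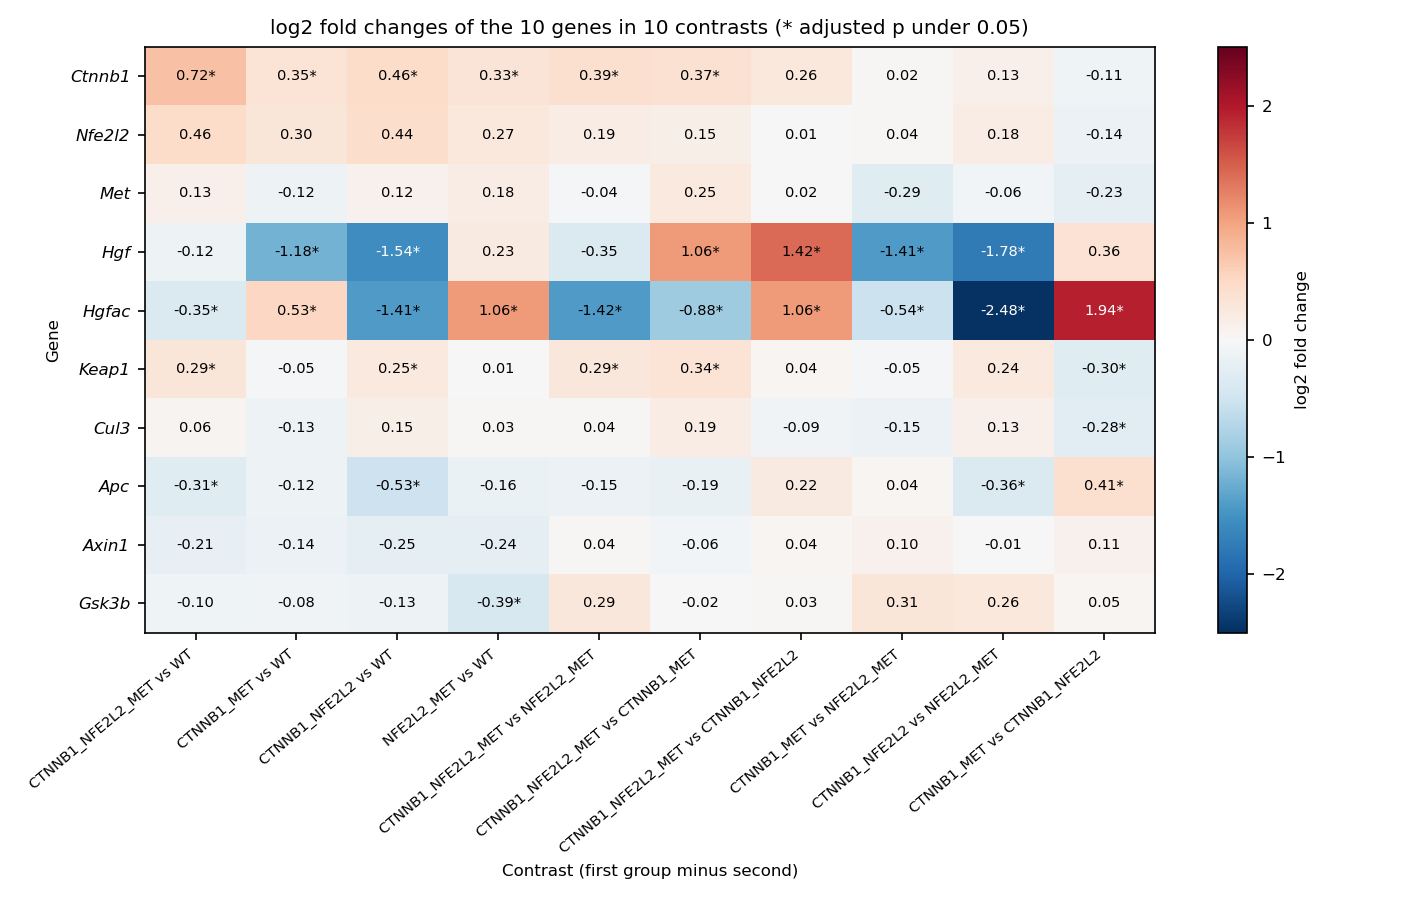
log2 fold change of each of the 10 genes (rows) in the 10 contrasts (columns, first group minus second), with an asterisk where the edgeR adjusted p was under 0.05. Hgfac carries an asterisk in all 10 contrasts, and Nfe2l2, Met and Axin1 in none.

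Among the introduced genes' counterparts, Ctnnb1 (chr9:120929216-120960507, plus strand) was higher than in WT in all 4 other groups, including the group that had no CTNNB1. Its level was 453, 409 and 454 CPM in CTNNB1_NFE2L2_MET, 387, 320.2 and 309.6 CPM in CTNNB1_MET, 388, 358 and 352 CPM in CTNNB1_NFE2L2, 355, 316 and 331 CPM in NFE2L2_MET, and 243, 259 and 295 CPM in WT. Every library with introduced genes stood above all 3 WT libraries, and those of CTNNB1_NFE2L2_MET above all others. The log2 fold change against WT was 0.72 ± 0.11 (SE, adjusted p = 9.31e-05) in CTNNB1_NFE2L2_MET, 0.46 ± 0.11 (adjusted p = 0.00363) in CTNNB1_NFE2L2, 0.35 ± 0.11 (adjusted p = 0.0455) in CTNNB1_MET and 0.33 ± 0.11 (adjusted p = 0.0483) in NFE2L2_MET. The calls in CTNNB1_MET and NFE2L2_MET were at the threshold: leaving out any of 12 and 11 of the 15 libraries ended them, with adjusted p up to 0.205 and 0.157.

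Between groups with and without introduced CTNNB1, the level of Ctnnb1 separated only in part. CTNNB1_NFE2L2_MET was higher than NFE2L2_MET by 0.39 ± 0.11 (adjusted p = 0.0154), and than CTNNB1_MET by 0.37 ± 0.11 (adjusted p = 0.0193), although CTNNB1 was introduced in CTNNB1_MET too. CTNNB1_NFE2L2 minus NFE2L2_MET was 0.13 on the log2 scale (95% interval -0.11 to 0.37) and CTNNB1_MET minus NFE2L2_MET was 0.02 (-0.22 to 0.26), neither past the threshold. Under total-count scaling, which put the median of all genes at -0.18 to 0.38 depending on the contrast, Ctnnb1 in CTNNB1_NFE2L2 passed against NFE2L2_MET (0.44, adjusted p = 0.00934). Under it, the calls against WT ended in CTNNB1_MET (0.33, adjusted p = 0.0869) and NFE2L2_MET (0.20, adjusted p = 0.247). The call against NFE2L2_MET ended without NFE2L2_MET replicate 2 (adjusted p = 0.0605). That against CTNNB1_MET ended without CTNNB1_NFE2L2_MET replicate 1 or 3 or CTNNB1_MET replicate 2 or 3 (adjusted p up to 0.0804). The log2 fold change was 0.29 (adjusted p = 0.122) without replicate 3 of CTNNB1_NFE2L2_MET, CTNNB1_MET and WT. The deposited counts of those 3 libraries carry the word added in their names, and its meaning is not given. In the annotation, Ctnnb1 shares 759 exon bases with Ulk4 on the opposite strand, and the counts are unstranded, so reads there cannot be assigned to either strand.

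Unmapped reads were most frequent in WT, where Ctnnb1 was lowest. They made up 10.3 ± 1.41% of reads in CTNNB1_NFE2L2_MET, 10.7 ± 1.03% in CTNNB1_NFE2L2, 13.7 ± 0.878% in NFE2L2_MET, 17.2 ± 1.75% in CTNNB1_MET and 22.9 ± 3.05% in WT (SD, n = 3 each). With a term for the unmapped share, added after seeing the data, the log2 fold change of Ctnnb1 in CTNNB1_NFE2L2_MET against WT was 0.53 (adjusted p = 0.465). With that term 10 of the 33 calls of the 10 genes held, 6 of Hgfac, 3 of Hgf and 1 of Apc. Against WT only that of Hgfac in CTNNB1_NFE2L2 held. The change was not limited to these genes: with the term, only 2 of 11 counts of all genes called stayed within 1.5-fold of the main fit. The share differs between the groups, so the term and the groups cannot be fully told apart.

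Nfe2l2 (chr2:75675513-75704641, minus strand), the gene of NRF2, passed the test in 0 of 10 contrasts, with an unadjusted p under 0.05 in 2. Its level was 63.4, 65.1 and 59.2 CPM in CTNNB1_NFE2L2_MET, 62.4, 56.4 and 50.1 CPM in CTNNB1_MET, 88.1, 49.2 and 48.9 CPM in CTNNB1_NFE2L2, 56.5, 53.3 and 54.9 CPM in NFE2L2_MET, and 56.7, 39.2 and 41.2 CPM in WT. CTNNB1_NFE2L2 replicate 1 stood far above its 2 partners, and WT replicate 1 above its own. CTNNB1_NFE2L2_MET libraries all stood above WT, with a log2 fold change of 0.46 ± 0.20 (adjusted p = 0.0682), and the difference passed without WT replicate 1 (0.64, adjusted p = 0.0217) or without CTNNB1_NFE2L2 replicate 1 (0.46, adjusted p = 0.00761), and with only the libraries of that contrast (0.46, adjusted p = 0.0373).

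CTNNB1_NFE2L2 minus WT was 0.44 ± 0.20 for Nfe2l2 (adjusted p = 0.0767), which passed without WT replicate 1 or CTNNB1_NFE2L2 replicate 2 or 3 (adjusted p of 0.0243 to 0.033). Under total-count scaling, Nfe2l2 passed in CTNNB1_NFE2L2_MET against WT (0.69, adjusted p = 0.016) and against NFE2L2_MET (0.55, adjusted p = 0.0454), and in CTNNB1_NFE2L2 against WT (0.63, adjusted p = 0.0275). With all libraries and TMM scaling, NFE2L2_MET minus WT was 0.27 (95% interval -0.16 to 0.69), and CTNNB1_NFE2L2_MET minus CTNNB1_MET was 0.15 (-0.27 to 0.57). Nqo1, a quinone reductase and NRF2 target, was higher than in WT in all 4 groups, with log2 fold changes of 5.64 in CTNNB1_NFE2L2_MET, 5.53 in CTNNB1_NFE2L2, 4.23 in NFE2L2_MET and 0.76 in CTNNB1_MET. Hspa1a, an inducible heat-shock chaperone among the 3 genes most like Nfe2l2 in pattern, had 102, 18.4 and 15.1 CPM in CTNNB1_NFE2L2, so the same library was high for both genes.

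Met (chr6:17463800-17573980, plus strand) also passed in 0 of 10 contrasts, and in 0 at an unadjusted p under 0.05. Its level was 86.6, 79.2 and 83.8 CPM in CTNNB1_NFE2L2_MET, 64.9, 73.0 and 72.2 CPM in CTNNB1_MET, 82.5, 85.7 and 78.8 CPM in CTNNB1_NFE2L2, 86.4, 91.7 and 79.4 CPM in NFE2L2_MET, and 53.6, 96.0 and 78.1 CPM in WT. WT held both the lowest and the highest library. CTNNB1_NFE2L2, which carried no introduced MET, lay within the range of the groups that did, and CTNNB1_MET had the lowest mean (70.0 ± 4.45 CPM, SD, n = 3). CTNNB1_NFE2L2_MET minus CTNNB1_NFE2L2 was 0.02 on the log2 scale, with a 95% interval of -0.30 to 0.33. How many reads of human MET align to mouse Met was not tested. Without WT replicate 2, CTNNB1_NFE2L2_MET minus WT was 0.34 (adjusted p = 0.0472) in place of 0.13. Under total-count scaling, CTNNB1_NFE2L2_MET passed against WT (0.37, adjusted p = 0.0434) and CTNNB1_MET (0.51, adjusted p = 0.00966), and CTNNB1_MET against CTNNB1_NFE2L2 (-0.45, adjusted p = 0.0229).

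Hgf (chr5:16553495-16620152, plus strand), the ligand gene of MET, was low in CTNNB1_MET and CTNNB1_NFE2L2. It had 3.58, 2.84 and 4.38 CPM in CTNNB1_NFE2L2_MET, 1.66, 1.91 and 1.62 CPM in CTNNB1_MET, 1.69, 1.25 and 1.06 CPM in CTNNB1_NFE2L2, 5.30, 3.79 and 4.70 CPM in NFE2L2_MET, and 3.52, 2.79 and 5.45 CPM in WT. The 6 libraries of CTNNB1_MET and CTNNB1_NFE2L2 were all below the 9 others, while CTNNB1_NFE2L2_MET, NFE2L2_MET and WT overlapped. Each library held only 19 to 90 reads of Hgf, so counting error is a large part of each value.

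Against WT, Hgf was lower in CTNNB1_MET by a log2 fold change of -1.18 ± 0.28 (adjusted p = 0.009) and in CTNNB1_NFE2L2 by -1.54 ± 0.28 (adjusted p = 3.57e-04). It was higher in CTNNB1_NFE2L2_MET than in CTNNB1_MET (1.06 ± 0.28, adjusted p = 0.00784) and CTNNB1_NFE2L2 (1.42 ± 0.28, adjusted p = 0.00196). Compared with NFE2L2_MET, it was lower in CTNNB1_MET (-1.41 ± 0.28, adjusted p = 0.00257) and CTNNB1_NFE2L2 (-1.78 ± 0.28, adjusted p = 1.57e-04). CTNNB1_NFE2L2_MET minus WT was -0.12 (95% interval -0.67 to 0.43) and NFE2L2_MET minus WT 0.23 (-0.32 to 0.78). So a lower level was found in 2 of the 3 groups with CTNNB1, and not in the group that combined CTNNB1 with both other genes. These calls held when any single library was left out. Replicate 3 of CTNNB1_NFE2L2_MET, CTNNB1_MET and WT has counts with the word added in their names. Without those libraries, CTNNB1_MET minus WT was -0.82 (adjusted p = 0.0902) and CTNNB1_NFE2L2_MET minus CTNNB1_MET was 0.85 (adjusted p = 0.0508). With the count column of 1 strand, CTNNB1_MET minus WT was -1.06 (adjusted p = 0.0509).

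Markers of stellate cells and fibroblasts followed Hgf only in part. Of 12 such markers, 8 were lower and 1 higher than in WT in CTNNB1_MET, and 8 lower and 0 higher in CTNNB1_NFE2L2, against 4 lower and 2 higher in CTNNB1_NFE2L2_MET and 3 lower and 1 higher in NFE2L2_MET. The shares of all tested genes that passed were 17.2, 48.7, 49.9 and 23.4% in that order. Dcn, a matrix proteoglycan of fibroblasts, averaged 39.9 CPM in CTNNB1_NFE2L2_MET, 42.0 CPM in CTNNB1_MET, 24.0 CPM in CTNNB1_NFE2L2, 65.0 CPM in NFE2L2_MET and 78.4 CPM in WT. Between CTNNB1_NFE2L2_MET and CTNNB1_MET, where Hgf differed, Dcn did not pass the test (-0.07, adjusted p = 0.837). Reln, reelin, was higher than in WT in CTNNB1_MET, where Hgf was lower: it averaged 307 CPM in CTNNB1_NFE2L2_MET, 271 CPM in CTNNB1_MET, 34.7 CPM in CTNNB1_NFE2L2, 168 CPM in NFE2L2_MET and 37.6 CPM in WT. Ecm1, an extracellular matrix protein, averaged 293 CPM in CTNNB1_NFE2L2_MET, 39.6 CPM in CTNNB1_MET, 121.3 CPM in CTNNB1_NFE2L2, 57.9 CPM in NFE2L2_MET and 102 CPM in WT. Reln and Ecm1 thus carried much of the summed level in CTNNB1_NFE2L2_MET, and Reln in CTNNB1_MET. The summed level of the 12 ranged over 732 to 1080 CPM (CTNNB1_NFE2L2_MET), 480 to 538 CPM (CTNNB1_MET), 264 to 382 CPM (CTNNB1_NFE2L2), 448 to 531 CPM (NFE2L2_MET) and 384 to 788 CPM (WT), and none of the 12 was at 0 in any library. CTNNB1_MET and NFE2L2_MET overlapped in this sum but not in Hgf. In bulk liver, fewer cells of a type and less RNA per cell cannot be told apart, and the part of stellate cells in the Hgf result was not tested.

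Of 12 endothelial markers, 3 were higher and 5 lower than in WT in CTNNB1_NFE2L2_MET, 2 higher and 2 lower in CTNNB1_MET, 3 higher and 2 lower in CTNNB1_NFE2L2, and 3 higher and 0 lower in NFE2L2_MET. For these and the marker counts that follow, the shares of all tested genes that passed were 49.9, 17.2, 48.7 and 23.4% in those 4 groups. Macrophage and Kupffer cell markers were higher than in WT for 8 of 9 in CTNNB1_NFE2L2_MET, CTNNB1_NFE2L2 and NFE2L2_MET and for 4 of 9 in CTNNB1_MET, with 0 lower. T and NK cell markers (7 tested of 8) were higher for 5, 2, 1 and 0 in CTNNB1_NFE2L2_MET, CTNNB1_MET, CTNNB1_NFE2L2 and NFE2L2_MET, with 0 lower. Their counts were low, for example 1 to 31 reads per library for Nkg7 and 12 to 73 for Il2rb, which leaves little room to call a decrease. Of 5 tested cholangiocyte markers (of 6), 2 were higher and 2 lower than in WT in CTNNB1_NFE2L2_MET, 0 higher and 2 lower in CTNNB1_MET, 1 higher and 2 lower in CTNNB1_NFE2L2, and 1 higher and 0 lower in NFE2L2_MET. Epcam, an epithelial adhesion protein, averaged 27.2 CPM in CTNNB1_NFE2L2_MET, 1.60 CPM in CTNNB1_MET, 20.3 CPM in CTNNB1_NFE2L2, 37.8 CPM in NFE2L2_MET and 0.779 CPM in WT. Spp1, osteopontin, and Sox9, a biliary transcription factor, were lower than in WT in CTNNB1_NFE2L2_MET (-1.54 and -1.31), CTNNB1_MET (-1.23 and -1.48) and CTNNB1_NFE2L2 (-2.42 and -0.98). WT itself varied, over 48.0 to 128 CPM for Spp1 and 6.93 to 16.4 CPM for Sox9. Sox9 in CTNNB1_NFE2L2 (5.06 to 7.73 CPM) overlapped WT. The summed level of the 6 cholangiocyte markers was 146, 140 and 57.9 CPM in the WT libraries.

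Hgfac (chr5:35041509-35048461, plus strand), the serine protease that cleaves the HGF precursor, differed in all 10 contrasts, and in 9 of them no libraries overlapped. It had 115, 94.6 and 85.7 CPM in CTNNB1_NFE2L2_MET, 179.8, 171 and 193 CPM in CTNNB1_MET, 42.5, 44.7 and 54.7 CPM in CTNNB1_NFE2L2, 233, 276 and 281 CPM in NFE2L2_MET, and 133, 135 and 109 CPM in WT. The groups thus ran from NFE2L2_MET through CTNNB1_MET, WT and CTNNB1_NFE2L2_MET down to CTNNB1_NFE2L2, and each neighbouring pair in that order passed the test. Only CTNNB1_NFE2L2_MET and WT overlapped.

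Hgfac was higher than in WT in NFE2L2_MET (1.06 ± 0.13, adjusted p = 4.11e-05) and CTNNB1_MET (0.53 ± 0.13, adjusted p = 0.0129), and lower in CTNNB1_NFE2L2 (-1.41 ± 0.14, adjusted p = 7.83e-07) and CTNNB1_NFE2L2_MET (-0.35 ± 0.13, adjusted p = 0.0363). Its largest difference was CTNNB1_NFE2L2 against NFE2L2_MET, 5.57-fold lower (-2.48 ± 0.14, adjusted p = 8.37e-09). CTNNB1_MET exceeded CTNNB1_NFE2L2 by 1.94 ± 0.14 (adjusted p = 5.58e-08). With all 3 introduced genes the level was lower than in NFE2L2_MET (-1.42 ± 0.13, adjusted p = 1.99e-06) and in CTNNB1_MET (-0.88 ± 0.13, adjusted p = 1.47e-04), and higher than in CTNNB1_NFE2L2 (1.06 ± 0.13, adjusted p = 8.85e-05).

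The weaker Hgfac calls rested on single libraries. The call of CTNNB1_NFE2L2_MET against WT ended without WT replicate 1 or 2 or CTNNB1_NFE2L2_MET replicate 2 or 3 (adjusted p up to 0.148), and under total-count scaling (-0.12, adjusted p = 0.467). That of CTNNB1_MET against WT ended without WT replicate 3 (adjusted p = 0.0505), and that of CTNNB1_MET against NFE2L2_MET (-0.54 ± 0.13, adjusted p = 0.0122) ended without CTNNB1_MET replicate 2 (adjusted p = 0.0565). Without the 3 replicates whose counts are named as added, CTNNB1_MET minus WT was 0.39 (adjusted p = 0.0941) and CTNNB1_NFE2L2_MET minus WT was -0.35 (adjusted p = 0.0655).

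The summed level of hepatocyte markers had the same order of group means as Hgfac, but not every marker did. The summed level of 7 such markers (Alb, Ttr, Apoa1, Serpina1a, Fgb, Trf, Apob) averaged 88518 CPM in CTNNB1_NFE2L2_MET, 166832 CPM in CTNNB1_MET, 43062 CPM in CTNNB1_NFE2L2, 191533 CPM in NFE2L2_MET and 105179 CPM in WT. Albumin made up much of that sum, with Alb at 51499 CPM in CTNNB1_NFE2L2_MET, 97473 CPM in CTNNB1_MET, 16848 CPM in CTNNB1_NFE2L2, 123472 CPM in NFE2L2_MET and 50866 CPM in WT. Against WT, 4 of the 7 were lower in CTNNB1_NFE2L2_MET and 6 in CTNNB1_NFE2L2, with 0 higher, while 3 were higher in CTNNB1_MET and 2 in NFE2L2_MET, with 0 lower. Among all tested genes, 49.9, 48.7, 17.2 and 23.4% passed in that order. The median log2 fold change of the 7 against WT was -0.58 in CTNNB1_NFE2L2_MET, -1.06 in CTNNB1_NFE2L2, 0.35 in NFE2L2_MET and -0.12 in CTNNB1_MET, so in CTNNB1_MET, where Hgfac was higher, the median was below 0. Serpina1a and Fgb, an antiprotease and a fibrinogen chain, were -0.17 and -0.47 there (neither passed), and Alb was 0.02 in CTNNB1_NFE2L2_MET, where Hgfac was lower. The gene most like Hgfac over the 15 libraries was Serpinf2, the plasmin inhibitor made by hepatocytes (Pearson r = 0.98), followed by Cfi, complement factor I, and Alb, albumin (r = 0.96 for both). The part of hepatocyte RNA as a whole in the Hgfac result was not tested.

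**Figure D3:**
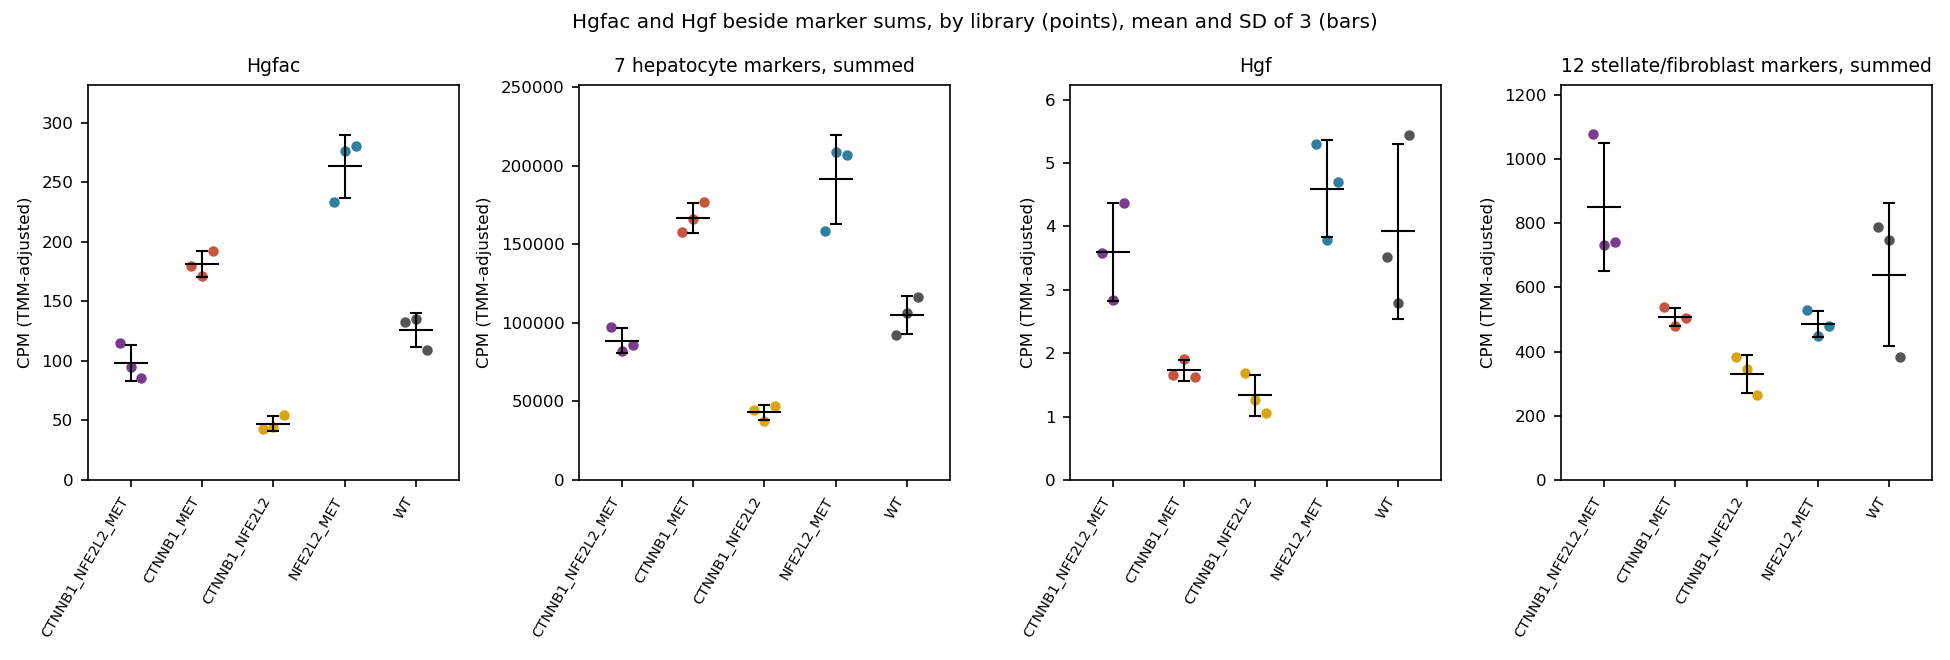
Hgfac beside the summed level of 7 hepatocyte markers, and Hgf beside that of 12 stellate and fibroblast markers (y axes, TMM-adjusted CPM from 0), by group (x axes); points are libraries, bars are the mean and SD of 3. Hgfac and the hepatocyte sum share the order of group means, while the stellate sum of NFE2L2_MET (448 to 531 CPM) lies within that of WT (384 to 788 CPM) and overlaps that of CTNNB1_MET (480 to 538 CPM).

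Other genes of HGF activation and MET signalling were followed as a list of 28, of which 27 were tested (Spint1, an inhibitor of HGF activation, had too few counts). Against WT, 11 were higher and 10 lower in CTNNB1_NFE2L2_MET, 8 higher and 8 lower in CTNNB1_NFE2L2, 4 higher and 2 lower in NFE2L2_MET, and 2 higher and 2 lower in CTNNB1_MET. The shares of all tested genes that passed were 49.9, 48.7, 23.4 and 17.2% in that order. The median log2 fold change of the list was 0.32, -0.18, 0.09 and -0.00 in those contrasts. Plat, tissue plasminogen activator, averaged 54.6 ± 23.1 CPM in CTNNB1_NFE2L2_MET, 4.18 ± 1.62 CPM in CTNNB1_MET, 21.6 ± 9.43 CPM in CTNNB1_NFE2L2, 4.91 ± 1.98 CPM in NFE2L2_MET and 1.04 ± 0.106 CPM in WT (SD, n = 3 each), and was higher than in WT in all 4. Plg, plasminogen, was lower than in WT in CTNNB1_NFE2L2 (-1.46) and CTNNB1_NFE2L2_MET (-0.80). Klkb1, plasma kallikrein, was lower in all 4, with -2.02 in CTNNB1_NFE2L2_MET, -1.55 in CTNNB1_NFE2L2, -1.06 in NFE2L2_MET and -0.64 in CTNNB1_MET. Plxnb1, a semaphorin receptor that associates with MET, averaged 90.4 CPM in CTNNB1_NFE2L2_MET, 123 CPM in CTNNB1_MET, 35.7 CPM in CTNNB1_NFE2L2, 120 CPM in NFE2L2_MET and 63.9 CPM in WT. By its mean, Plxnb1 was thus higher than in WT in the 3 groups with MET and lower in CTNNB1_NFE2L2. The libraries of CTNNB1_NFE2L2_MET (81.0 to 104 CPM) overlapped those of WT (49.8 to 83.8 CPM). As for Hgfac, the means were highest in CTNNB1_MET and NFE2L2_MET and lowest in CTNNB1_NFE2L2. The part of MET in this was not tested.

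Keap1 (chr9:21229730-21239361, minus strand), the adaptor that binds NRF2, was higher in the groups that combined CTNNB1 with NFE2L2. Its level was 114, 102 and 89.3 CPM in CTNNB1_NFE2L2_MET, 76.3, 77.2 and 87.4 CPM in CTNNB1_MET, 94.0, 104 and 98.3 CPM in CTNNB1_NFE2L2, 80.2, 83.6 and 86.4 CPM in NFE2L2_MET, and 85.4, 82.6 and 81.0 CPM in WT. All 6 libraries of CTNNB1_NFE2L2_MET and CTNNB1_NFE2L2 stood above the 9 others, which overlapped each other. Against WT the log2 fold change was 0.29 ± 0.10 (adjusted p = 0.0179) in CTNNB1_NFE2L2_MET and 0.25 ± 0.10 (adjusted p = 0.0392) in CTNNB1_NFE2L2.

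NFE2L2 without CTNNB1 gave no call for Keap1: NFE2L2_MET minus WT was 0.01 (95% interval -0.20 to 0.21). CTNNB1_NFE2L2_MET exceeded NFE2L2_MET by 0.29 (adjusted p = 0.0322) and CTNNB1_MET by 0.34 (adjusted p = 0.0118), and CTNNB1_MET was below CTNNB1_NFE2L2 (-0.30, adjusted p = 0.0234). CTNNB1_NFE2L2 minus NFE2L2_MET was 0.24 (adjusted p = 0.0554). All 5 calls were sensitive to single libraries. Without CTNNB1_NFE2L2_MET replicate 1, the log2 fold changes of CTNNB1_NFE2L2_MET against WT, NFE2L2_MET and CTNNB1_MET were 0.21, 0.20 and 0.26 (adjusted p of 0.101, 0.164 and 0.071). The call of CTNNB1_NFE2L2 against WT ended without any of 6 libraries (adjusted p up to 0.136) and that of CTNNB1_MET against CTNNB1_NFE2L2 without any of 4 (adjusted p up to 0.0955). CTNNB1_NFE2L2 minus NFE2L2_MET passed with DESeq2 (0.27, adjusted p = 0.0227), RLE size factors (0.27, adjusted p = 0.0358) and total-count scaling (0.56, adjusted p = 3.17e-04). Keap1 shares 510 exon bases with the antisense gene Gm16754, which is not among the counted genes. The counts do not separate strands, so reads from Gm16754 there may be counted as Keap1.

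Cul3 (chr1:80264923-80340480, minus strand), the ligase scaffold that KEAP1 recruits, ranged over 42.9 to 60.5 CPM in the 15 libraries. It passed in 1 contrast, CTNNB1_MET against CTNNB1_NFE2L2 (48.8 ± 5.56 CPM against 59.3 ± 1.07 CPM, SD, n = 3 each, log2 fold change -0.28 ± 0.10, adjusted p = 0.0393). Leaving out any of 7 libraries ended that call (adjusted p up to 0.177). Against WT its log2 fold changes were 0.06, -0.13, 0.15 and 0.03 in CTNNB1_NFE2L2_MET, CTNNB1_MET, CTNNB1_NFE2L2 and NFE2L2_MET. Under total-count scaling, 5 contrasts that were not called passed, from 0.30 (CTNNB1_NFE2L2_MET against WT, adjusted p = 0.0301) to 0.45 (CTNNB1_NFE2L2_MET against CTNNB1_MET, adjusted p = 0.00323).

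Of 19 tested genes of NRF2 turnover, 6 were higher and 3 lower than in WT in CTNNB1_NFE2L2_MET, 1 and 2 in CTNNB1_MET, 4 and 5 in CTNNB1_NFE2L2, and 0 and 1 in NFE2L2_MET. The shares of all tested genes that passed were 49.9, 17.2, 48.7 and 23.4% in that order, and the median log2 fold changes of the list were 0.04, -0.04, -0.02 and -0.08. Dcun1d1, a cullin neddylation factor, averaged 49.2 ± 3.20 CPM in CTNNB1_NFE2L2_MET, 31.6 ± 2.66 CPM in CTNNB1_MET, 42.3 ± 1.47 CPM in CTNNB1_NFE2L2, 32.3 ± 1.74 CPM in NFE2L2_MET and 27.5 ± 1.51 CPM in WT (SD, n = 3 each). Like Keap1, Dcun1d1 was higher than in WT in both groups with CTNNB1 and NFE2L2 (0.84 in CTNNB1_NFE2L2_MET and 0.62 in CTNNB1_NFE2L2). Uba3, of the NEDD8-activating enzyme, was higher in CTNNB1_NFE2L2_MET (0.38) and lower in CTNNB1_MET (-0.35), and Ube2m, a NEDD8-conjugating enzyme, was higher in CTNNB1_NFE2L2 (0.39). Ptma, prothymosin alpha, a binder of KEAP1, was higher in CTNNB1_NFE2L2_MET (0.38) and CTNNB1_MET (0.35).

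Of 12 NRF2 partners and related factors, 2 were higher and 3 lower than in WT in CTNNB1_NFE2L2_MET, 2 and 2 in CTNNB1_MET, 2 and 6 in CTNNB1_NFE2L2, and 2 and 2 in NFE2L2_MET, beside 49.9, 17.2, 48.7 and 23.4% of all tested genes that passed. The median log2 fold changes of the list were -0.21, -0.05, -0.22 and 0.00. Mafk, a small MAF protein that pairs with NRF2 on DNA, averaged 37.7 ± 4.22 CPM in CTNNB1_NFE2L2_MET, 23.3 ± 1.07 CPM in CTNNB1_MET, 32.7 ± 4.70 CPM in CTNNB1_NFE2L2, 26.9 ± 3.35 CPM in NFE2L2_MET and 18.1 ± 0.587 CPM in WT (SD, n = 3 each). It passed against WT in all 3 groups with NFE2L2, and in CTNNB1_MET, where every library also stood above WT, it was 0.36 (adjusted p = 0.0561). Its relative Mafg was higher in CTNNB1_NFE2L2 (0.55) and lower in CTNNB1_MET (-0.43) and NFE2L2_MET (-0.72). Bach2, a repressor that competes for MAF partners, was lower in CTNNB1_NFE2L2 (-1.61). The chromatin remodeller Chd6 was lower in CTNNB1_NFE2L2_MET (-0.63), CTNNB1_MET (-0.33) and CTNNB1_NFE2L2 (-0.67).

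Among the scaffolds and the kinase of the destruction complex, Apc (chr18:34220924-34322552, plus strand) was lower than in WT where CTNNB1 and NFE2L2 were combined. Its level was 30.4, 30.5 and 32.6 CPM in CTNNB1_NFE2L2_MET, 33.5, 38.8 and 34.6 CPM in CTNNB1_MET, 28.3, 23.3 and 28.9 CPM in CTNNB1_NFE2L2, 31.4, 34.4 and 37.7 CPM in NFE2L2_MET, and 36.0, 39.7 and 40.1 CPM in WT. CTNNB1_NFE2L2 was below every other group without overlap, and CTNNB1_NFE2L2_MET below WT and CTNNB1_MET. Against WT the log2 fold change was -0.53 ± 0.10 (adjusted p = 6.92e-04) in CTNNB1_NFE2L2 and -0.31 ± 0.10 (adjusted p = 0.0212) in CTNNB1_NFE2L2_MET.

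Apc was also lower in CTNNB1_NFE2L2 than in NFE2L2_MET (-0.36 ± 0.10, adjusted p = 0.0124), and higher in CTNNB1_MET than in CTNNB1_NFE2L2 (0.41 ± 0.10, adjusted p = 0.00654). CTNNB1_NFE2L2_MET passed only against WT. It did not pass against NFE2L2_MET (-0.15, adjusted p = 0.311), CTNNB1_MET (-0.19, adjusted p = 0.173) or CTNNB1_NFE2L2 (0.22, adjusted p = 0.14). The call of CTNNB1_NFE2L2_MET against WT ended without WT replicate 2 or 3 or CTNNB1_NFE2L2_MET replicate 1 or 2 (adjusted p up to 0.0639). It also ended without the 3 replicates whose counts are named as added (adjusted p = 0.0715). That of CTNNB1_NFE2L2 against NFE2L2_MET ended without CTNNB1_NFE2L2 replicate 2 or NFE2L2_MET replicate 3 (adjusted p up to 0.0756). Under total-count scaling, 3 of the 4 Apc calls ended, with log2 fold changes of -0.07, -0.05 and 0.20, that of CTNNB1_NFE2L2 against WT stayed, and NFE2L2_MET passed against WT (-0.29, adjusted p = 0.0393).

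Axin1 (chr17:26138688-26195811, plus strand), the scaffold that APC works with, was highest in WT by its mean (30.3 ± 1.22 CPM) but passed in 0 of 10 contrasts, with an unadjusted p under 0.05 in 2. Its log2 fold changes against WT were -0.21, -0.14, -0.25 and -0.24 in CTNNB1_NFE2L2_MET, CTNNB1_MET, CTNNB1_NFE2L2 and NFE2L2_MET, the third with an adjusted p of 0.0761. Without CTNNB1_NFE2L2 replicate 1 the third was -0.36 (adjusted p = 0.0202). Under total-count scaling, Axin1 passed in NFE2L2_MET against WT (-0.38, adjusted p = 0.0271), and in CTNNB1_NFE2L2_MET (0.40, adjusted p = 0.01) and CTNNB1_NFE2L2 (0.31, adjusted p = 0.0442) against NFE2L2_MET. The 15 libraries lay between 22.2 and 31.7 CPM.

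Gsk3b (chr16:38089001-38246084, plus strand), the kinase that phosphorylates β-catenin and can also mark NRF2, ranged over 30.01 to 47.5 CPM. It passed in 1 contrast, NFE2L2_MET against WT: 33.6, 30.01 and 30.2 CPM in NFE2L2_MET and 42.4, 33.5 and 47.5 CPM in WT, with overlap between them (-0.39 ± 0.12, adjusted p = 0.0327). The call ended without WT replicate 1 or 3 or NFE2L2_MET replicate 2 or 3 (adjusted p up to 0.135), or without the 3 replicates whose counts are named as added (-0.28, adjusted p = 0.145). Without WT replicate 2, CTNNB1_NFE2L2_MET and CTNNB1_NFE2L2 passed against NFE2L2_MET (0.30 and 0.28, adjusted p of 0.0356 and 0.0421). Under total-count scaling, CTNNB1_NFE2L2_MET (0.65, adjusted p = 6.99e-04), CTNNB1_MET (0.41, adjusted p = 0.0442) and CTNNB1_NFE2L2 (0.57, adjusted p = 0.00188) all passed against NFE2L2_MET.

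Further genes of the destruction complex and its turnover were followed as a list of 29, of which 28 were tested. Against WT, 10 were higher and 8 lower in CTNNB1_NFE2L2_MET, 3 and 3 in CTNNB1_MET, 8 and 10 in CTNNB1_NFE2L2, and 0 and 4 in NFE2L2_MET, while 49.9, 17.2, 48.7 and 23.4% of all tested genes passed. The list had median log2 fold changes of 0.05, -0.01, 0.03 and -0.15. Axin2, the Wnt-inducible relative of Axin1 and one of the label-check targets, averaged 46.3 ± 5.04 CPM in CTNNB1_NFE2L2_MET, 16.7 ± 1.21 CPM in CTNNB1_MET, 29.4 ± 3.0 CPM in CTNNB1_NFE2L2, 4.16 ± 1.58 CPM in NFE2L2_MET and 8.97 ± 2.69 CPM in WT (SD, n = 3 each). Rnf43, a ligase that removes Wnt receptors, was higher than in WT in the 3 groups with CTNNB1 (1.62 in CTNNB1_NFE2L2_MET, 1.57 in CTNNB1_MET and 0.75 in CTNNB1_NFE2L2). The Wnt co-receptors moved apart. Lrp5 was higher in CTNNB1_NFE2L2_MET (0.78) and CTNNB1_MET (0.57) and lower in NFE2L2_MET (-0.74), while Lrp6 was lower in CTNNB1_NFE2L2_MET (-0.83) and CTNNB1_NFE2L2 (-1.02).

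Of 12 tested β-catenin partners, 4 were higher and 2 lower than in WT in CTNNB1_NFE2L2_MET, 3 and 1 in CTNNB1_MET, 3 and 2 in CTNNB1_NFE2L2, and 1 and 4 in NFE2L2_MET (Pygo1 had too few counts). Of all tested genes, 49.9, 17.2, 48.7 and 23.4% passed, and the medians of the list were -0.13, -0.08, -0.20 and -0.43. Of the DNA-binding partners, Tcf7 averaged 14.4 ± 0.363 CPM in CTNNB1_NFE2L2_MET, 14.8 ± 3.65 CPM in CTNNB1_MET, 11.2 ± 2.30 CPM in CTNNB1_NFE2L2, 2.19 ± 0.290 CPM in NFE2L2_MET and 3.86 ± 0.460 CPM in WT (SD, n = 3 each). Lef1 was higher than in WT in the same 3 groups with CTNNB1 (4.20 in CTNNB1_NFE2L2_MET, 3.20 in CTNNB1_MET and 3.97 in CTNNB1_NFE2L2) and averaged 0.211 CPM in WT. Tcf7l1, a mainly repressive TCF, was lower in those 3 groups (-1.78, -0.94 and -1.72). This was not limited to groups with CTNNB1: the Tcf7l1 libraries of NFE2L2_MET (4.13 to 4.46 CPM) also stood below those of WT (5.61 to 7.36 CPM). Cdh2, N-cadherin, was lowest in NFE2L2_MET (54.0 ± 2.63 CPM, against 104 ± 3.26 CPM in WT, log2 fold change -0.95).

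**Figure D4:**
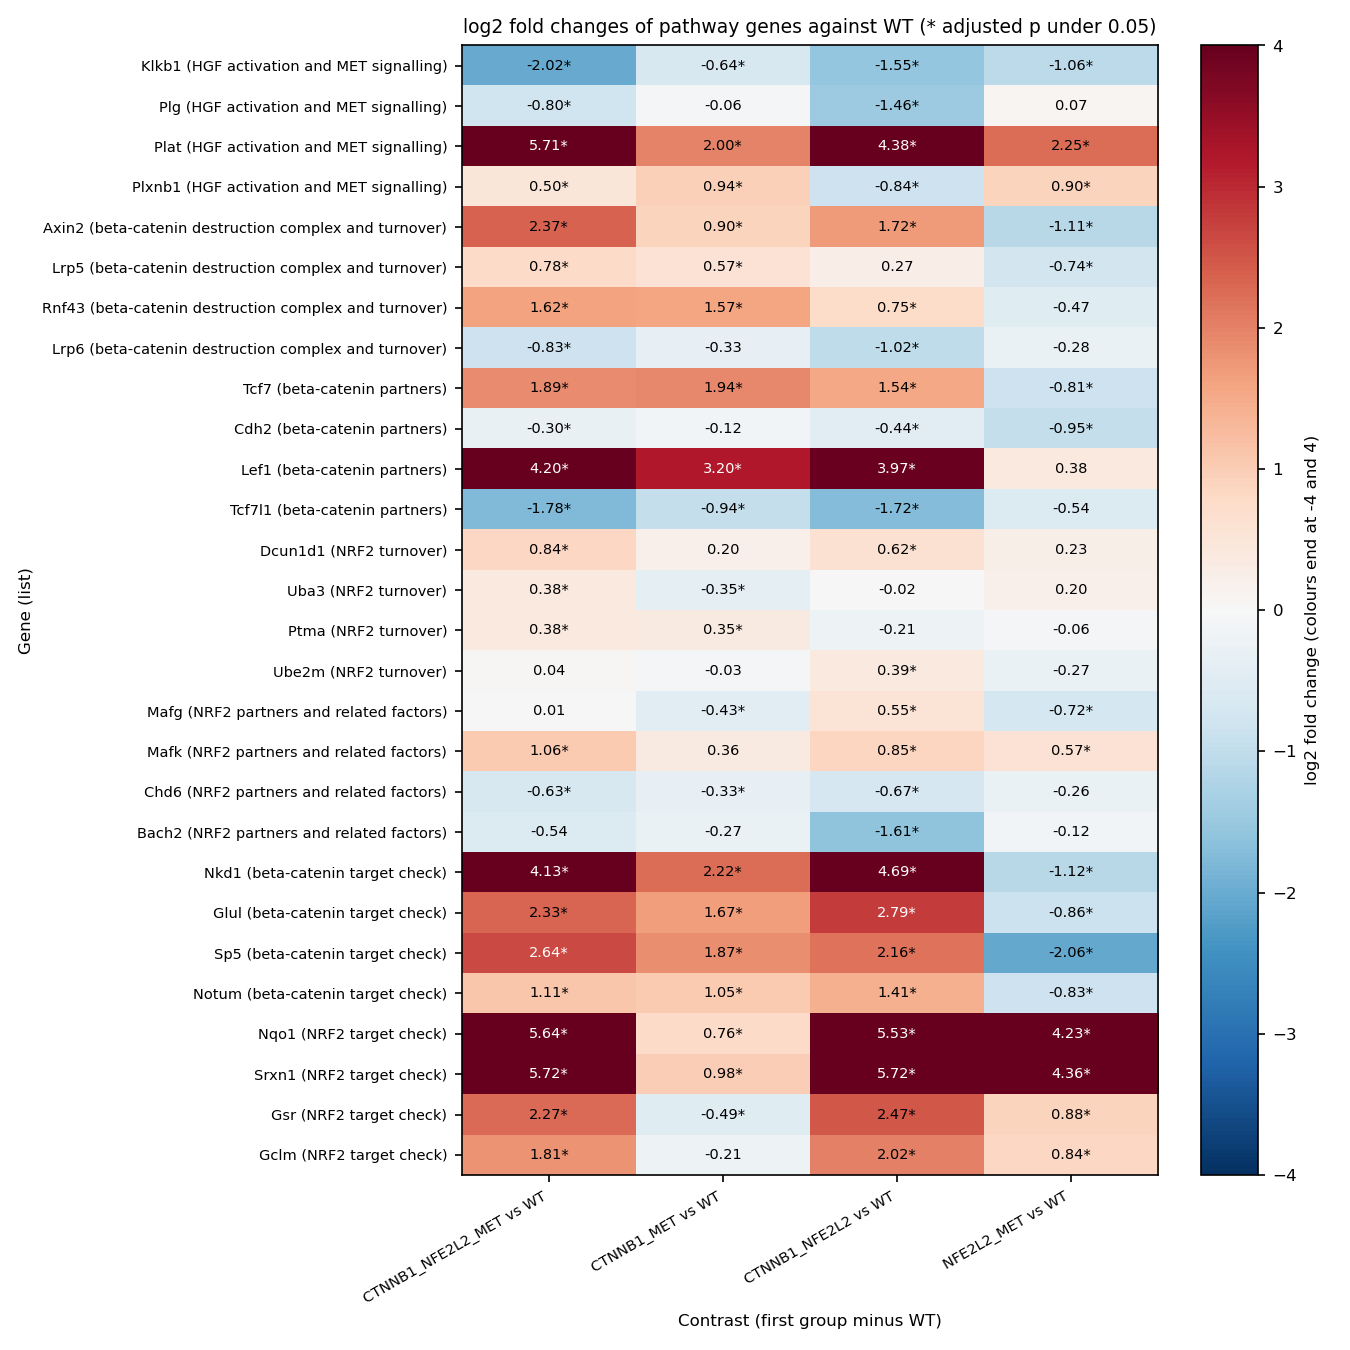
log2 fold change against WT (colour and number, asterisk where the edgeR adjusted p was under 0.05) of the 4 genes with the smallest p in each pathway and target list (rows, list in brackets) in the 4 groups with introduced genes (columns). Lef1, Tcf7 and the β-catenin targets carry positive values in the 3 columns with CTNNB1, and Nqo1 and Srxn1 in the 3 columns with NFE2L2 and, at 0.76 and 0.98, in CTNNB1_MET.

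The likest gene to each member over the 15 libraries was Tfrc for Ctnnb1 (Pearson r = 0.95 of log2 CPM), Klc1 for Nfe2l2 (0.83), Dcaf7 for Met (0.84), Ints6 for Hgf (0.96), Lbh for Keap1 (0.94), Pomp for Cul3 (0.85), Rfwd2 for Apc (0.93), Setd1b for Axin1 (0.88) and Cyth2 for Gsk3b (0.91). The libraries share the 5 groups and their depth, so these are descriptions. The next in likeness were Atad2 and Nap1l1 for Ctnnb1, Hspa1a and Otud7b for Nfe2l2, Susd1 and Rrp15 for Met, Trip11 and Nbeal1 for Hgf, Ap2b1 and Aldoa for Keap1, Fam13a and Kctd20 for Cul3, Atg3 and Enho for Apc, Crebbp and Kmt2d for Axin1, and Baiap2l1 and Ubxn1 for Gsk3b. Among the 45 pairs of members, the most opposed were Keap1 and Apc (r = -0.70) and the most alike Hgfac and Apc (r = 0.67).

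Promoter windows (RefSeq, GRCm38.p6, 250 bases before to 50 after a start) were taken for 8 of the 10 genes. No window of Apc or Axin1 was in the search, so motifs in their promoters were not tested. The windows taken were searched on both strands for TGACNNNGC, the core of the antioxidant response element that NRF2 binds, and CTTTGAT, a TCF motif. The antioxidant motif is in 12.4% of 32851 windows. It was found in those of Nfe2l2 and Met and in 1 of 2 windows each of Hgf and Ctnnb1. The TCF motif is in 3.73% of the 32851 and was found in no window of the 8 genes, so no matches overlapped. The window of Nfe2l2 (chr2:75704614-75704913, minus strand) is shown with its match at -240 in capitals, as the gene of the introduced factor. That of Hgfac (chr5:35041259-35041558, plus strand) is shown as the member that varied most, and it held no match to either. A match is a description of letters and not a bound site.
Nfe2l2 promoter: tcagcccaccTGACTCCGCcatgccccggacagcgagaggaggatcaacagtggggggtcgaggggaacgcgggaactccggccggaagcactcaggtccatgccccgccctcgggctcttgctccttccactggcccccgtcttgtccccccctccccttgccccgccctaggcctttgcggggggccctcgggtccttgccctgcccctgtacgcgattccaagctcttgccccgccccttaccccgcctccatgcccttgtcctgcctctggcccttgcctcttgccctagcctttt
Hgfac promoter: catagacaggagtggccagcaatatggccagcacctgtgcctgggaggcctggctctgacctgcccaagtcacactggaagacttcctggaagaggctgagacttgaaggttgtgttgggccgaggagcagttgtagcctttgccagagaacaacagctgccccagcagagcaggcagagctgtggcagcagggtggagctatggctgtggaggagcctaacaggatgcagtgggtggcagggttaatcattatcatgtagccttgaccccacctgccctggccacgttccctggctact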

How the data were processed

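The deposited files hold gene counts made by the authors, 1 file for each of 15 libraries. Per the submitters' processing notes, Trimmomatic, STAR and mm10 were used; their versions, like the annotation release, were not given in the sources used here. The unstranded column was used, since the strand columns held nearly equal shares (49.7 to 49.9% in column 3). The members, lists and contrasts were chosen with earlier results of these data known. Testing used R 4.3.3 and edgeR 4.0.16: TMM scaling, filterByExpr by group (14098 of 24411 genes), 1 coefficient per group over all libraries, the robust quasi-likelihood F test, and Benjamini-Hochberg adjustment over all tested genes with a threshold of 0.05. Standard errors come from the F statistic, and 95% intervals use the fit's degrees of freedom. Named genes are the 10 members, 4 of each of 13 lists with the smallest p over the groups (not all are described), and the 3 likest to each member among 8527 well-expressed genes. Coordinates and exon lengths are from GENCODE (GRCm38). Replicates are numbered in sample order and pair nothing; replicate pairs differed beyond sampling noise (chi-square per gene 14.1 to 116). The test was tried on simulated counts. Alternatives were RLE and total-count scaling, no filter, 1 strand, DESeq2 1.42.0, only a contrast's libraries, the 3 libraries marked as added left out or given a term, and each library left out. That mark is a word in the names of the deposited counts, and its meaning is not given. A term for the unmapped share was chosen after seeing the data.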

Additional observations from a re-analysis of the deposited data

How the results depend on the processing

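No paired analysis was possible because no label ties a sample of 1 group to a sample of another. Of 33 calls of members in the 10 contrasts, 9 held under all 24 alternatives, and of 67 values not called, 46 stayed so. The result that turned over was Axin1 in CTNNB1_NFE2L2 against NFE2L2_MET, 0.31 (adjusted p = 0.0442) under total-count scaling in place of -0.01; the cause was not tested. That scaling moved the median of all genes to between -0.18 and 0.38 (log2), beside -0.02 to 0.03 under TMM, and its counts of members called were 7 for CTNNB1_NFE2L2_MET against NFE2L2_MET, 7 for CTNNB1_NFE2L2 against NFE2L2_MET and 10 for any difference. With only a contrast's libraries, the counts were 1 for NFE2L2_MET against WT and 5 for CTNNB1_NFE2L2 against NFE2L2_MET. Without the 3 libraries marked as added, which leaves fewer samples, they were 2 for CTNNB1_NFE2L2_MET against WT, 1 for CTNNB1_MET against WT and 2 for CTNNB1_NFE2L2_MET against CTNNB1_MET. With a term for those 3, NFE2L2_MET against WT gave 1. Counts of all genes called also moved between settings. They stayed within 1.5-fold of the main fit in 10 of 11 comparisons under total-count scaling and in 8 of 10 with only a contrast's libraries. Without the 3 libraries, or with a term for them, 11 of 11 did. The shares of all genes quoted above belong to the main fit.

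With a term for the unmapped share, chosen after seeing the data, members called were 0 for CTNNB1_NFE2L2_MET against WT, 0 for CTNNB1_MET against WT, 1 for CTNNB1_NFE2L2 against WT and 0 for NFE2L2_MET against WT. They were 1 each for CTNNB1_NFE2L2_MET against NFE2L2_MET and against CTNNB1_MET, 1 each for CTNNB1_MET against NFE2L2_MET and against CTNNB1_NFE2L2, and 2 for any difference. Under that term 10 of the 33 calls held, all of Hgfac, Hgf or Apc. Calls over all genes changed too, with only 2 of 11 counts within 1.5-fold of the main fit. Leaving out each library gave 2 to 5 members for CTNNB1_NFE2L2_MET against WT, 1 to 3 for NFE2L2_MET against WT, 1 to 4 for CTNNB1_NFE2L2_MET against NFE2L2_MET, 2 to 4 for CTNNB1_NFE2L2_MET against CTNNB1_MET, 1 to 2 for CTNNB1_MET against NFE2L2_MET, 2 to 5 for CTNNB1_NFE2L2 against NFE2L2_MET and 2 to 4 for CTNNB1_MET against CTNNB1_NFE2L2. For each library left out, 10 or 11 of the 11 counts of all genes called stayed within 1.5-fold of the main fit. Depth limits Hgf most, at 19 to 90 reads per library.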
